A study of Mus musculus with 18 samples.

Results

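The tumour necrosis factor (TNF) superfamily pairs trimeric ligands, mostly held in the cell membrane, with a family of receptors that share cysteine-rich extracellular repeats. Receptors with a cytoplasmic death domain can start caspase activation through adaptors such as TRADD and FADD, while the others recruit TRAF adaptors and lead to NF-kappaB and kinase signalling. In the spleen the family is known for B cell survival, for co-stimulation between dendritic cells and lymphocytes, and for killing by lymphocytes. The genes described here are those whose single platform symbol starts with Tnfsf (ligands) or Tnfrsf (receptors). They comprised 31 of 36701 probe sets and 22 of 15964 genes: 10 probe sets for 6 ligand genes and 21 probe sets for 16 receptor genes. A probe set is a group of short probes that reports 1 transcript.

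Transcript levels were measured in 3 cell populations of mouse spleen. The labels name them IKDC, for interferon-producing killer dendritic cells, PDC, for the plasmacytoid kind, and cDC, for the conventional kind, which served as the control. Each population had 2 samples, said by the submitters to be prepared separately, and each sample was hybridised to the 3 Affymetrix array types U74A, U74B and U74C. The strain, age, genotype, sorting gates and number of animals are not given in the sources used here, so the p-values measure the spread between these samples, which may be partly technical.

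The samples carried most markers of their labels. Of 14 natural killer (NK) cell markers tested, 12 were higher in IKDC than in cDC. Of 14 plasmacytoid dendritic cell markers, 13 were higher in PDC than in cDC, and 2 were higher and 2 lower in IKDC than in cDC. Of 14 conventional dendritic cell markers, 12 were lower in IKDC and 6 lower in PDC than in cDC. In PDC 1 of that list, Clec10a, was higher, at 2516.8 and 2802.5 against 808.7 and 671.3 in cDC. By the test described below, 5.60% of all tested probe sets differed in IKDC versus cDC and 3.65% in PDC versus cDC. Signals are in arbitrary units, and their median per array was 51.7 to 87.3. Correlations over probe sets ran from 0.785 to 0.953 within a population and from 0.707 to 0.817 between populations. The number of arrays limits the precision.

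A probe set was tested when its signal reached 60 on at least 2 of 6 arrays, which 17 of the 31 family probe sets did (4 of 10 for ligands and 13 of 21 for receptors). They stood for 15 of the 22 genes. That share, 54.8%, compares with 63.4% of all probe sets. Mean signals of at least 200 were found for 4 family probe sets (12.9%) and for 23.8% of all probe sets. Differences are estimate ± SE of log2(signal + 16), a scale on which dim probe sets appear to differ less than they do, and p-values are from limma, adjusted over 23285 tested probe sets by the Benjamini-Hochberg method with a threshold of 0.05.

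Of the 17 tested family probe sets, 0 were called higher and 1 was called lower in IKDC than in cDC (7 had an unadjusted limma p under 0.05, beside 18.9% of all tested probe sets). Among all tested probe sets 5.60% were called in that comparison, against 1 of 17 here. In PDC versus cDC 1 was called higher and 2 were called lower, beside 3.65% of all probe sets (5 unadjusted, beside 14.9%). In IKDC versus PDC 1 was called higher and 1 lower, beside 4.45% of all probe sets (3 unadjusted, beside 14.5%). The median log2 difference of the family was -0.55 in IKDC versus cDC, -0.27 in PDC versus cDC and -0.01 in IKDC versus PDC, where all tested probe sets had -0.01, -0.01 and -0.02. The calls fell on 4 receptor genes, Tnfrsf13b, Tnfrsf1b, Tnfrsf21 and Tnfrsf9, and on no ligand gene of the naming pattern. The called probe sets of Tnfrsf21 and Tnfrsf9, and that of Tnfsf9, entered the test only through the population where they were high. The counts above include them and are descriptive.

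The windows around the annotated starts of these 4 genes are shown because they are the members with a called difference. Each runs from 250 bases before to 50 bases after a RefSeq start on build GRCm38.p6, where 18 of the 22 genes had an entry. Tnfrsf13b lies at chr11:61126505-61126804 (plus strand), Tnfrsf1b at chr4:145246821-145247120 (minus strand) and Tnfrsf21 at chr17:43016305-43016604 (plus strand). Tnfrsf9 has a pair of listed starts, at chr4:150919905-150920204 and chr4:150927749-150928048 (plus strand). Capitals mark matches, on either strand, to 4 patterns: GGAAGT (an ETS core), CAGGTG (an E protein box), the NF-kappaB pattern (GGG and TTTCC separated by any 2 bases) and the interferon-stimulated response element (GAAA repeated after any 2 bases). No match overlapped another.
Tnfrsf13b: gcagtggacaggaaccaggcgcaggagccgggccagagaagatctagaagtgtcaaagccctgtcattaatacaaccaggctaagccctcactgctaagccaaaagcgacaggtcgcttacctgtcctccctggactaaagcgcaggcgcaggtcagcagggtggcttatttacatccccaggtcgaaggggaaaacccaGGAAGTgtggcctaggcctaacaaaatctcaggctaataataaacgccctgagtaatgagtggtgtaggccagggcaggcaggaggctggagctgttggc
Tnfrsf1b: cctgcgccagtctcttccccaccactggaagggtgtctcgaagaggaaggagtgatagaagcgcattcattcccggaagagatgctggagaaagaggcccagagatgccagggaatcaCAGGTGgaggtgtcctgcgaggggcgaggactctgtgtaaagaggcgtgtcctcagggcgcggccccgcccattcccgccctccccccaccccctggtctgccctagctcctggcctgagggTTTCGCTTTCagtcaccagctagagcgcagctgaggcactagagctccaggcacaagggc
Tnfrsf21: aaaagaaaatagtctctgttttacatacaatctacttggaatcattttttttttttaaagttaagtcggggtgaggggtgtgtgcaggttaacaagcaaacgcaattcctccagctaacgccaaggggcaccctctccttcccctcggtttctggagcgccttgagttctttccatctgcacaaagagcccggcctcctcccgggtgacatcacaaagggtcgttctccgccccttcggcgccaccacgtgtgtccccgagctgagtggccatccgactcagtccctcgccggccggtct
Tnfrsf9 start 1: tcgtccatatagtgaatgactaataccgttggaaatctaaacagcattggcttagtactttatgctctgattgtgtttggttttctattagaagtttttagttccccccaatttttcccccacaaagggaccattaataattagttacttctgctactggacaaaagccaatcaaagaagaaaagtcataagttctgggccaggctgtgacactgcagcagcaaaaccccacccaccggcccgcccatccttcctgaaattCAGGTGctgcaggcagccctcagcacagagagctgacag
Tnfrsf9 start 2: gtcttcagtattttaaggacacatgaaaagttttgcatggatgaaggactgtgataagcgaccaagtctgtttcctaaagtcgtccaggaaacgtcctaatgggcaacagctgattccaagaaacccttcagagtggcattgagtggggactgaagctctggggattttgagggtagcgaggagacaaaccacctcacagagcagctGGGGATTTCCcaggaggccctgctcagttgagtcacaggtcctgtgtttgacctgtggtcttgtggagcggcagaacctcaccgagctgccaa
Tnfrsf13b held 1 ETS core and Tnfrsf1b held 1 E protein box and 1 interferon response element, read on the opposite strand. The first start of Tnfrsf9 held 1 E protein box and the second held 1 NF-kappaB pattern, while the Tnfrsf21 window held none of the 4. Over 32851 such windows the shares with a match were 23.8% for GGAAGT, 20.2% for CAGGTG, 1.63% for the NF-kappaB pattern and 3.44% for the interferon response element. These matches describe letters only.

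**Figure D1:**
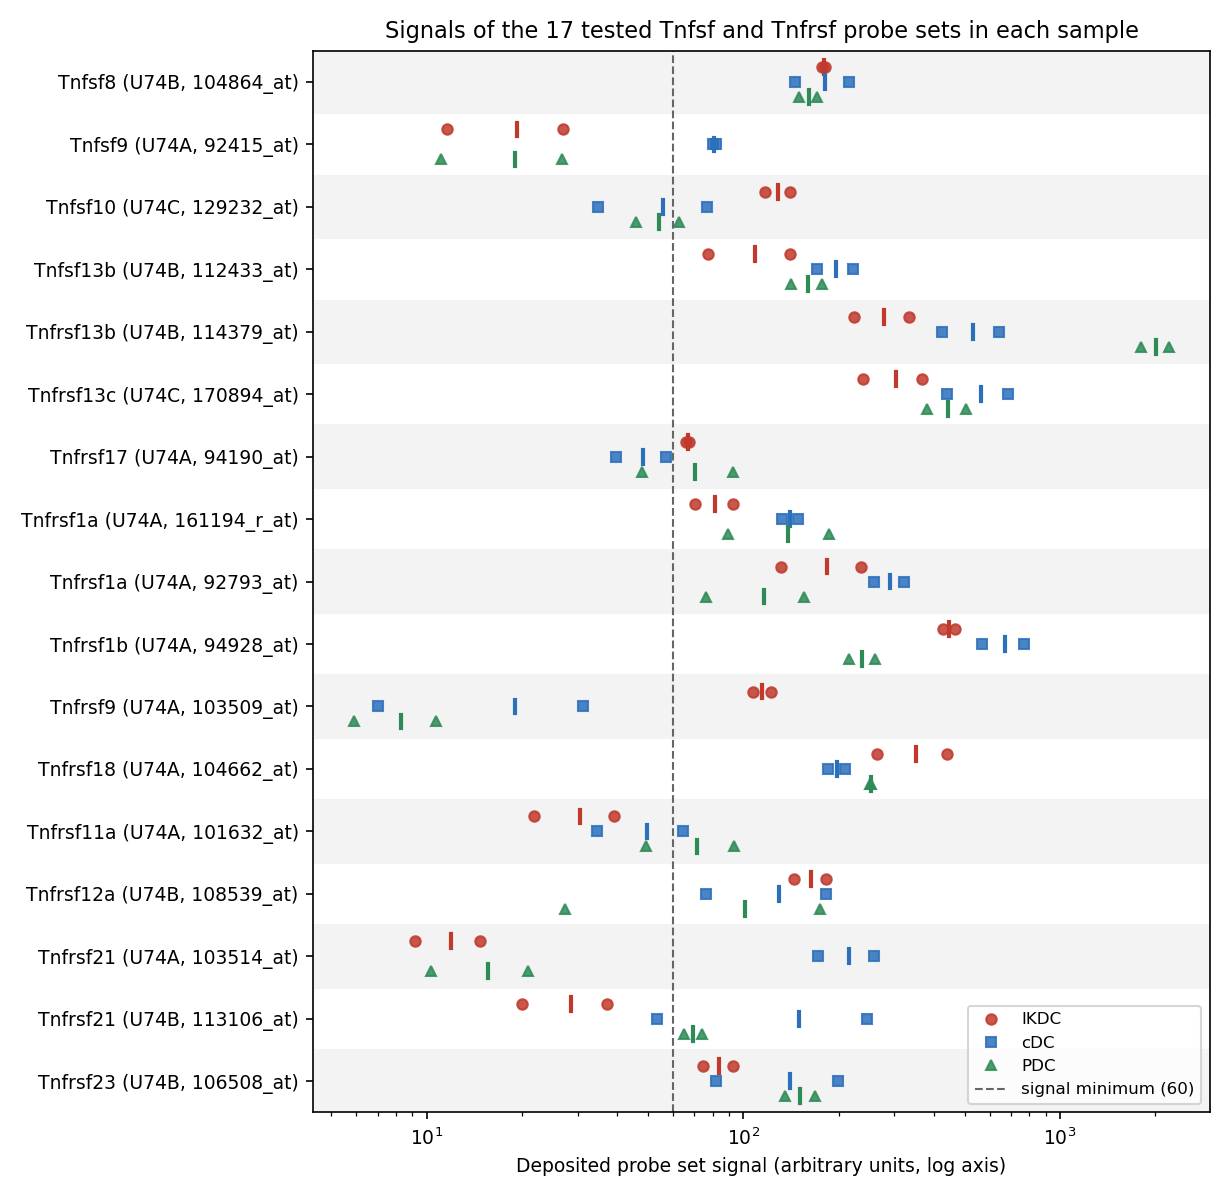
Deposited signal (arbitrary units, log axis) of each of the 17 tested family probe sets, with 1 point per sample for IKDC, cDC and PDC, a short vertical bar at each mean of 2 samples and a dashed line at the signal minimum of 60. Tnfrsf13b in PDC, at 1804.0 and 2207.9, stands above the other 4 samples, and Tnfrsf9 is above 60 only in the IKDC samples.

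The clearest difference lay in the B cell survival system, in which the ligands BAFF and APRIL bind the receptors TACI, BAFF receptor and BCMA, and in which PDC exceeded the other populations for TACI. Tnfrsf13b, which encodes TACI (probe set 114379_at on U74B), had signals of 332.6 and 223.8 in IKDC, 422.5 and 642.0 in cDC and 1804.0 and 2207.9 in PDC. The 3 populations did not overlap, with PDC highest and IKDC lowest. PDC, with a mean of 2006 ± 286 (SD, n = 2), was 3.83-fold above cDC (1.91 ± 0.30, limma adjusted p = 0.00647) and 7.32-fold above IKDC (IKDC minus PDC -2.80 ± 0.30, limma adjusted p = 0.000469). IKDC and cDC, neighbours in that order, did not differ past the threshold (-0.89 ± 0.30, limma adjusted p = 0.131). The difference from IKDC kept its call in all 16 alternatives run, and that from cDC lost it without cDC replicate 1 (limma adjusted p = 0.0731) and without the intensity trend in the variance (limma adjusted p = 0.054). Because these are sorted bulk samples, fewer cells with a transcript and less of it per cell cannot be told apart.

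The other receptors of that system differed less. Tnfrsf13c, encoding the BAFF receptor, had signals of 238.5 and 366.3 in IKDC, 438.8 and 683.6 in cDC and 505.3 and 379.3 in PDC. IKDC lay below cDC without overlap, yet the difference did not pass (-0.85 ± 0.37, limma adjusted p = 0.246). PDC overlapped cDC. Tnfrsf17, encoding BCMA, stayed between 39.6 and 92.7 in all 6 samples, and its log2 differences of 0.38, 0.39 and -0.01 did not pass (limma adjusted p = 0.688, 0.769 and 0.996).

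The ligand gene Tnfsf13b, encoding BAFF, had signals of 140.3 and 77.4 in IKDC, 170.9 and 222.0 in cDC and 177.2 and 141.9 in PDC. None of its differences passed, and the largest was IKDC minus cDC at -0.80 ± 0.39 (limma adjusted p = 0.304). Its other probe set reached at most 55.4 and was not tested. The APRIL gene, Tnfsf13, was not analysed here. A probe set with the pair of symbols Tnfsfm13 and Tnfsf12 is outside the naming rule, and its signals were 86.0 to 157.5.

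TACI, BAFF receptor and BCMA are best known from B lineage cells, so the B cell and plasma cell markers stand beside them. Of 14 such genes on the arrays 9 were tested, and Cr2, Fcer2a, Vpreb3, Ebf1 and Prdm1 were under the minimum. The summed signal of the 9 was 8742.5 and 5665.9 in IKDC, 1298.5 and 1337.7 in cDC and 8518.1 and 3750.9 in PDC. Most of it was Igha, and the other 8 summed to 2833.9 and 1461.1, 1108.4 and 1111.1, and 2043.7 and 1136.4 (a sum added after seeing the data). In PDC versus cDC 2 of the 9 were called higher and 1 lower, beside 3.65% of all tested probe sets. Higher were Igha, an antibody gene, at 6474.4 and 2614.5 in PDC and 190.1 and 226.6 in cDC (4.21 ± 0.39, limma adjusted p = 0.000152), and Jchain, the joining chain of secreted antibody, at 698.0 and 434.3 against 67.0 and 173.5 (2.18 ± 0.39, limma adjusted p = 0.00974). Lower was Cd22, a B cell inhibitory receptor (-2.28 ± 0.39, limma adjusted p = 0.00683). Cd79b, a chain of the B cell receptor complex, read 461.6 and 284.2 in PDC and 182.7 and 90.9 in cDC, without overlap and without a call (1.38 ± 0.46, limma adjusted p = 0.162). Its partner Cd79a read 136.4 and 46.6 in PDC and 59.4 and 36.6 in cDC, and Ms4a1 (CD20) read 299.3 and 97.3 against 287.4 and 196.9, both overlapping. IKDC replicate 1 had the highest sum of the list, and both IKDC samples were below the other 4 for Tnfrsf13b. The part of B lineage RNA in the Tnfrsf13b values was not tested.

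**Figure D2:**
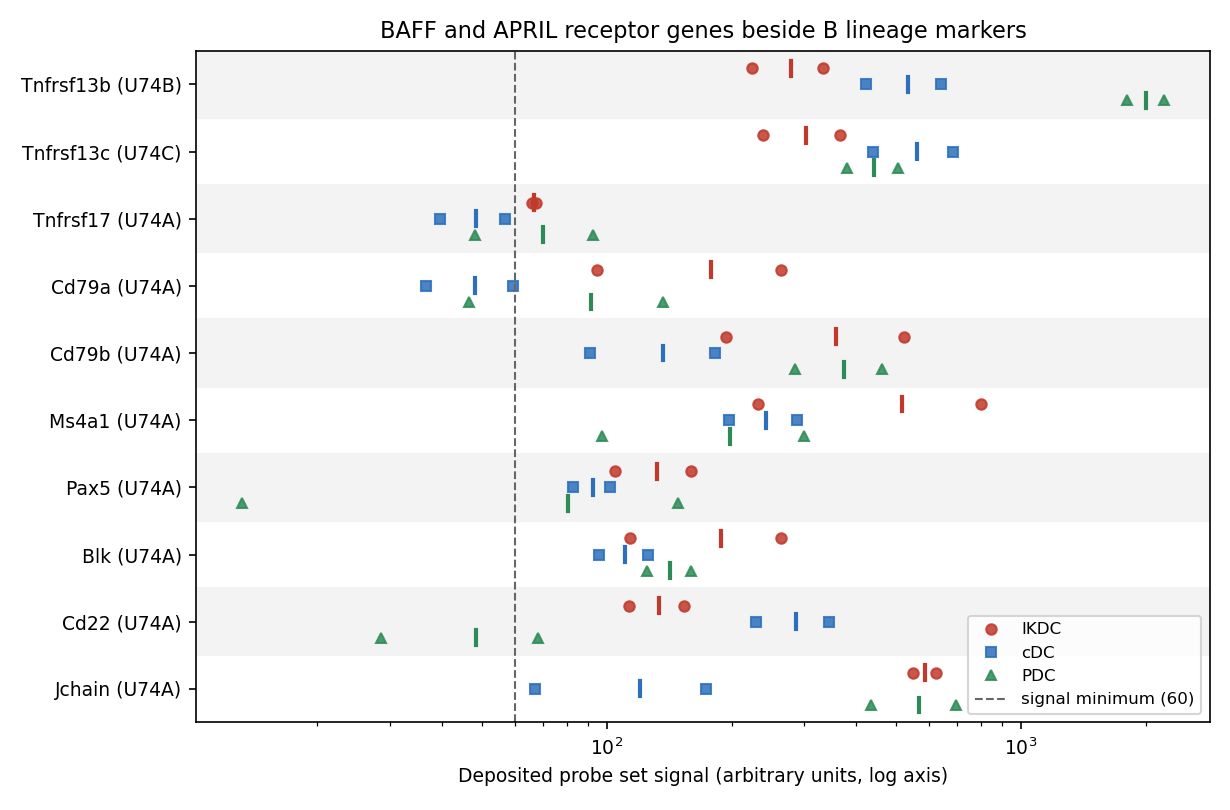
Deposited signal (arbitrary units, log axis) of Tnfrsf13b, Tnfrsf13c, Tnfrsf17 and 7 B lineage markers in each sample, with a bar at the mean of each population and a dashed line at 60. The PDC samples are highest for Tnfrsf13b at 1804.0 and 2207.9, while Jchain is high in PDC (698.0 and 434.3) and in IKDC (622.8 and 548.8), and Ms4a1 is highest in IKDC replicate 1 at 802.2.

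Of the receptors for TNF itself, the second was lower in PDC than in cDC. Tnfrsf1b, encoding TNF receptor 2, which lacks a death domain and binds TRAF2 (probe set 94928_at on U74A), had signals of 464.8 and 428.2 in IKDC, 769.4 and 567.2 in cDC and 259.6 and 215.6 in PDC. The 3 populations again did not overlap, in the order cDC, IKDC, PDC. PDC was 2.79-fold below cDC (-1.42 ± 0.28, limma adjusted p = 0.0171). IKDC did not differ past the threshold from cDC (-0.55 ± 0.28, limma adjusted p = 0.328) or from PDC (0.87 ± 0.28, limma adjusted p = 0.139). The PDC call was lost without cDC replicate 1, without cDC replicate 2 and without PDC replicate 2, with a limma adjusted p of up to 0.151, and without the intensity trend (limma adjusted p = 0.0512).

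Tnfrsf1a, encoding TNF receptor 1, which carries a death domain, has a pair of probe sets on U74A with different values. The first, 92793_at, read 131.1 and 235.8 in IKDC, 320.9 and 258.9 in cDC and 76.0 and 155.7 in PDC. The cDC samples were above all others, but PDC minus cDC did not pass (-1.28 ± 0.38, limma adjusted p = 0.115). With the replicate number as a block it did pass (limma adjusted p = 0.0404). The second, 161194_r_at, whose suffix marks relaxed probe selection, read 70.5 and 92.5, 148.3 and 132.6, and 186.4 and 89.5. There PDC overlapped cDC (-0.10, limma adjusted p = 0.951).

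Tnf, the ligand of both receptors, does not fall under the naming rule. Its signals were 167.0 and 156.5 in IKDC, 694.8 and 467.0 in cDC and 281.2 and 119.6 in PDC, with the cDC samples above the other 4. It was 3.52-fold lower in IKDC than in cDC (-1.72 ± 0.38, limma adjusted p = 0.0222) and 3.11-fold lower in PDC (-1.55 ± 0.38, limma adjusted p = 0.0496). The IKDC call was lost on leaving out any 1 of the IKDC and cDC samples (limma adjusted p up to 0.186) and without the intensity trend (limma adjusted p = 0.0527), and the PDC call under 11 of 16 alternatives.

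Of the death receptors, Tnfrsf21 was higher in cDC than in the other populations. It encodes death receptor 6, which carries a death domain. Probe set 103514_at on U74A read 14.7 and 9.2 in IKDC, 172.6 and 259.4 in cDC and 20.9 and 10.3 in PDC. Both cDC samples were above 60 and the other 4 were below it. The probe set thus entered the test through cDC alone, and its p-values are descriptive. The fold is a bound against 60: at least 3.53-fold higher in cDC than in IKDC (IKDC minus cDC -3.03 ± 0.46, limma adjusted p = 0.00247) and than in PDC (PDC minus cDC -2.87 ± 0.46, limma adjusted p = 0.00517). IKDC and PDC, both under the minimum, are given no fold. The IKDC call was lost without cDC replicate 2 (limma adjusted p = 0.076), and the PDC call without either cDC sample (limma adjusted p up to 0.124).

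The second Tnfrsf21 probe set, 113106_at on U74B, read 20.0 and 37.1 in IKDC, 246.1 and 53.5 in cDC and 74 and 65.0 in PDC. The cDC samples lay far apart, 1 above and 1 below the PDC samples. No difference passed there (IKDC minus cDC -1.63 ± 0.65, limma adjusted p = 0.207; PDC minus cDC -0.66 ± 0.65, limma adjusted p = 0.743). With the pair of probe sets averaged, the PDC call was lost (limma adjusted p = 0.0796).

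Tnfrsf1b, Tnfrsf21 and Tnf had their highest means in cDC, although Tnfrsf1b was called lower only in PDC versus cDC. Most monocyte and macrophage markers were also higher in cDC than in IKDC. Over all tested probe sets 5.60% were called in IKDC versus cDC and 3.65% in PDC versus cDC. Of 11 markers tested, 9 were lower in IKDC and 6 lower in PDC than in cDC. Their summed signal was 6912.5 and 8800.8 in cDC, 2290.2 and 3223.5 in IKDC and 4785.3 and 5750.6 in PDC. Csf1r, the receptor of macrophage colony-stimulating factor, read 1406.0 and 1237.3 in cDC, 75.3 and 62.3 in IKDC and 158.4 and 107.2 in PDC. Lyz2 read 1718.8 and 1520.4 in cDC, 115.3 and 24.6 in IKDC and 241.6 and 115.6 in PDC. Cd68 was highest in PDC, at 1335.8 and 1944.0 against 806.1 and 845.5 in cDC and 142.0 and 161.1 in IKDC. Ccr2 had its lowest mean in cDC, at 944.0 and 1640.9 against 1517.1 and 2452.7 in IKDC and 2007.8 and 2756.6 in PDC. The part of monocyte and macrophage RNA in the cDC values of the 3 TNF family genes was not tested.

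The TRAIL ligand, Tnfsf10, is an inducer of death used by NK cells. Its brightest probe set, on U74C, read 117.1 and 140.2 in IKDC, 76.9 and 34.8 in cDC and 62.8 and 45.7 in PDC. The IKDC samples were highest, but neither IKDC minus cDC (1.07 ± 0.62, limma adjusted p = 0.394) nor IKDC minus PDC (1.05 ± 0.62, limma adjusted p = 0.506) passed. All 6 values were under the highest unspiked bacterial control signal on U74C (149), and the other 2 probe sets of the gene stayed at or under 58.4. Of the mouse decoy receptors for TRAIL, Tnfrsf23 read 74.6 to 199.2 with no call, and Tnfrsf22 read 14.7 to 34.0 and was not tested.

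Among the co-stimulatory members, Tnfrsf9 was highest in IKDC. It encodes 4-1BB (CD137), a receptor induced on activated T and NK cells. Probe set 103509_at read 122.3 and 107.1 in IKDC, 7.0 and 31.1 in cDC and 10.7 and 5.9 in PDC. The IKDC samples were the only ones above 60, so the probe set entered the test through them alone and its p-values are descriptive. IKDC was at least 1.91-fold higher than PDC (2.43 ± 0.54, limma adjusted p = 0.0264), and the same bound held against cDC without passing the threshold (1.99 ± 0.54, limma adjusted p = 0.058).

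The Tnfrsf9 calls changed with the processing. The call against PDC was lost without IKDC replicate 1, IKDC replicate 2 or PDC replicate 2 (limma adjusted p up to 0.304) and with a pseudocount of 1 (limma adjusted p = 0.0741). The difference from cDC passed in 9 of 15 alternatives. A second Tnfrsf9 probe set on the same array type, 97683_at, read 20.8 and 37.8, 21.2 and 14.3, and 32.0 and 37.3, under the minimum in all 6 samples.

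Most NK cell markers were highest in IKDC beside Tnfrsf9. Their summed signal was 53217.5 and 58476.1 in IKDC, 4018.0 and 4977.2 in cDC and 6170.8 and 4375.4 in PDC. In IKDC most of it was Nkg7, at 30720.3 and 34970.7. Klrb1b went the other way without a call, at 54.7 and 56.2 in IKDC against 125.8 and 124.8 in cDC. Cd244a was near equal in IKDC (359.7 and 399.3) and cDC (353.1 and 329.4), also without a call. T cell markers summed to 1540.7 and 1232.6 in IKDC, 1124.7 and 1026.9 in cDC and 1142.0 and 1303.1 in PDC. Of the T cell list, Cd3e, Cd5, Cd6 and Ctla4 were under the minimum. Of the 7 tested, 2 were called higher and 0 lower in IKDC than in cDC, beside 5.60% of all tested probe sets. Among the brightest, Cd28 read 359.9 and 307.0 in IKDC, 56.8 and 46.7 in cDC and 183.0 and 223.2 in PDC. Cd4, Lat and Icos were lower in IKDC than in cDC without a call (-0.87, -0.45 and -1.45). Cd3g, which is dimmer, read 466.5 and 172.9 in IKDC and at most 66.2 elsewhere. The part of NK cell and T cell RNA in the Tnfrsf9 values was not tested.

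Tnfsf9, the ligand of 4-1BB (probe set 92415_at on U74A), read 11.6 and 26.9 in IKDC, 81.7 and 80.2 in cDC and 26.8 and 11.1 in PDC. Only the cDC samples were above 60, so Tnfsf9 entered the test through them alone and its p-values are descriptive. The bound was at least 1.35-fold higher in cDC, and neither IKDC minus cDC (-1.49 ± 0.52, limma adjusted p = 0.138) nor PDC minus cDC (-1.51 ± 0.52, limma adjusted p = 0.177) passed.

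Tnfrsf18, encoding the co-stimulatory receptor GITR (probe set 104662_at on U74A), read 438.6 and 265.2 in IKDC, 209.8 and 185.1 in cDC and 253.1 and 251.5 in PDC. The IKDC samples were highest without overlap, and the difference from cDC did not pass (0.75 ± 0.31, limma adjusted p = 0.218).

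The CD30 pair gave little signal on the receptor side. Tnfsf8, encoding CD30 ligand, read 145.5 to 216.2 over the 6 samples with differences of 0.01, -0.13 and 0.15, and its second probe set read 5.3 to 25.4. For the receptor, Tnfrsf8, 1 probe set read 30.4 to 77.0 with only cDC replicate 2 above 60, and the other read 4.0 to 9.8. The OX40 pair was below the minimum throughout, with Tnfrsf4 at 7.7 to 58.2 and its ligand Tnfsf4 at 1.5 to 22.0.

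In the RANK system, which dendritic cells and osteoclasts use for survival and differentiation, Tnfrsf11a (RANK) read 21.9 and 39.0 in IKDC, 64.7 and 34.4 in cDC and 93.2 and 49.3 in PDC. Those groups overlapped except IKDC with PDC, and IKDC minus PDC was -0.89 without passing (limma adjusted p = 0.455). The ligand Tnfsf11 (RANKL) read 18.1 to 45.4 and the decoy receptor Tnfrsf11b (osteoprotegerin) 24.3 to 56.4, and neither was tested. Tnfrsf12a, the receptor for the ligand TWEAK, read 27.4 to 182.9 and its differences did not pass, with PDC replicate 2 the low sample. Tnfrsf19 (TROY) had 1 probe set at 3.1 to 18.3 and another at 16.7 to 85.5, neither of them tested.

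**Figure D3:**
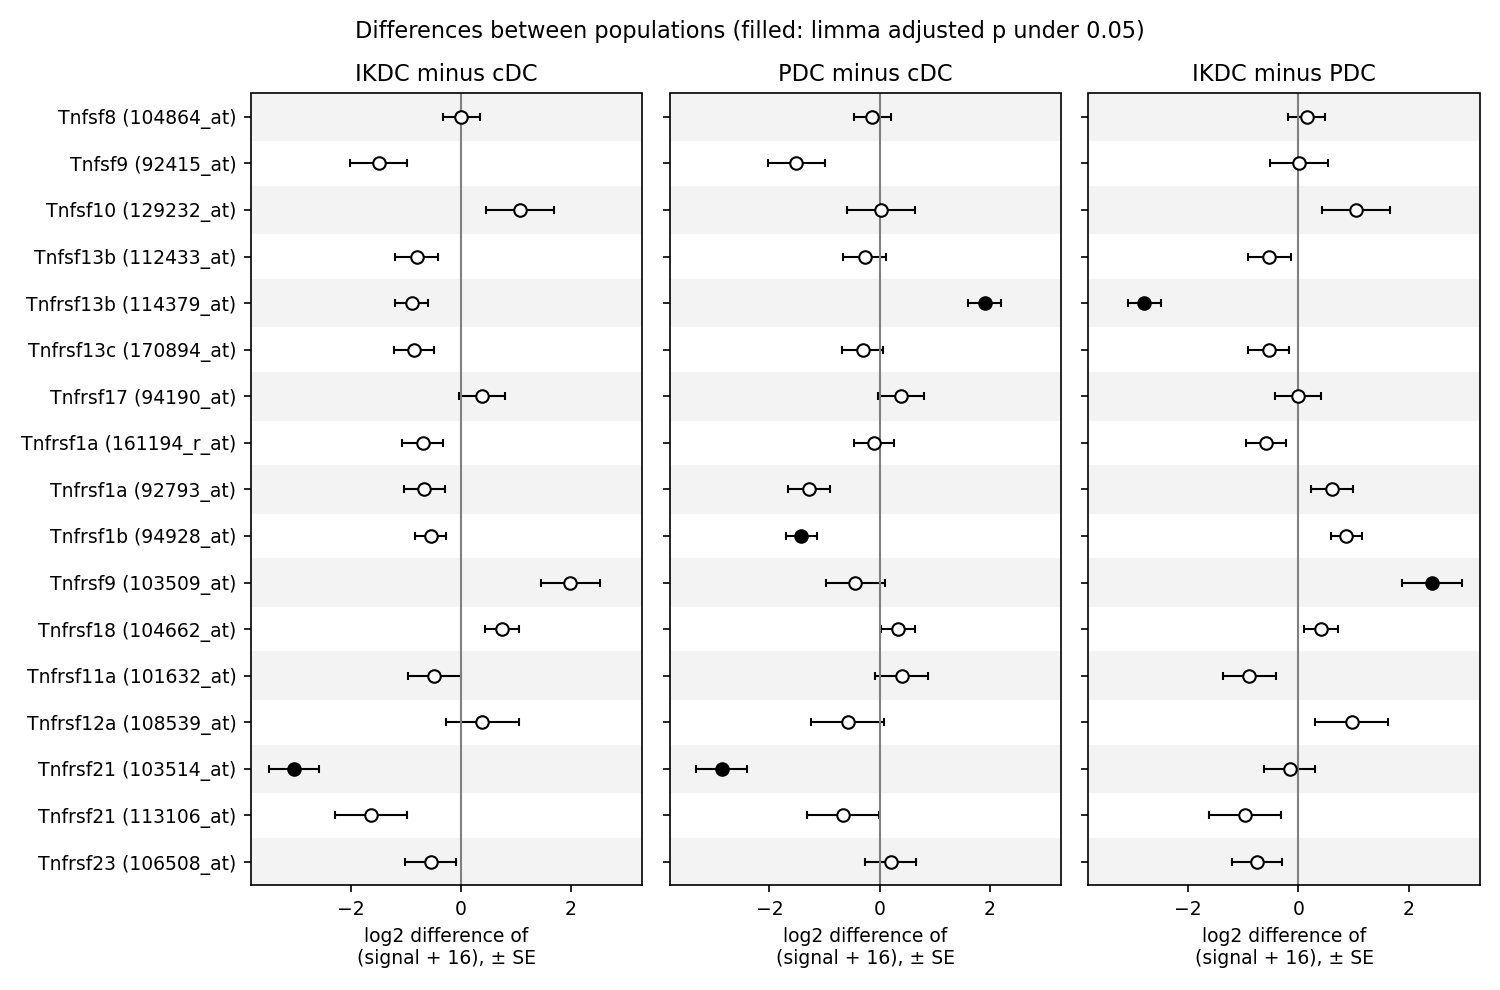
Log2 difference of (signal + 16), estimate ± SE, of the 17 tested family probe sets in IKDC minus cDC, PDC minus cDC and IKDC minus PDC, with filled points for a limma adjusted p under 0.05. The filled points are Tnfrsf21 (-3.03 and -2.87), Tnfrsf13b (1.91 and -2.80), Tnfrsf1b (-1.42) and Tnfrsf9 (2.43).

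Family genes that carry older symbols formed separate lists. Of 7 such ligand genes 6 were tested, and 1 was higher and 1 lower in IKDC than in cDC, 0 higher and 1 lower in PDC than in cDC, and 2 higher and 0 lower in IKDC than in PDC. Over all tested probe sets 5.60%, 3.65% and 4.45% were called in those comparisons, which holds beside the later lists too. Fasl, encoding the Fas ligand of cytotoxic lymphocytes, read 558.3 and 322.6 in IKDC, 15.4 and 40.2 in cDC and 24.2 and 7.1 in PDC. Only the IKDC samples exceeded 60, so Fasl entered the test through them alone and its p-values are descriptive. IKDC was at least 7.07-fold above either other population (IKDC minus cDC 3.39 ± 0.47, limma adjusted p = 0.00121, and IKDC minus PDC 3.86 ± 0.47, limma adjusted p = 0.000556). The call against cDC was lost without IKDC replicate 1 (limma adjusted p = 0.0504). Its receptor gene Fas had a probe set at 0.8 to 19.7, which was not tested.

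Ltb, encoding lymphotoxin beta, a ligand needed for lymphoid tissue structure, read 3016.3 and 3977.9 in IKDC, 2353.5 and 1992.1 in cDC and 986.5 and 1041.6 in PDC. The 3 populations did not overlap, and IKDC was 3.42-fold above PDC (1.76 ± 0.27, limma adjusted p = 0.00264). That call was lost without IKDC replicate 2 (limma adjusted p = 0.0515). PDC minus cDC was -1.08 ± 0.27 (limma adjusted p = 0.0512).

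Of 10 receptor genes with older symbols 7 were tested, and 1 was higher and 1 lower in each of the 3 comparisons. The shares called over all tested probe sets were 5.60% in IKDC versus cDC, 3.65% in PDC versus cDC and 4.45% in IKDC versus PDC. Cd27, a co-stimulatory receptor of lymphocytes, read 758.1 and 854.1 in IKDC, 117.0 and 78.0 in cDC and 177.1 and 79.3 in PDC. It was 8.42-fold above cDC (2.88 ± 0.37, limma adjusted p = 0.00073) and 6.79-fold above PDC (2.60 ± 0.37, limma adjusted p = 0.00158), in all 17 alternatives run and with a second probe set called too. Cd40, the receptor through which T cells license dendritic cells, read 58.2 and 37.8 in IKDC, 226.1 and 239.1 in cDC and 51.8 and 28.2 in PDC.

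Only the cDC samples had Cd40 above 60, so it entered the test through them alone and its p-values are descriptive. For Cd40, cDC was at least 3.88-fold above IKDC (-1.98 ± 0.38, limma adjusted p = 0.0101) and PDC (-2.18 ± 0.38, limma adjusted p = 0.00787). Leaving out either cDC sample ended each of those calls, and leaving out IKDC replicate 2 ended the former (limma adjusted p up to 0.118 and 0.097). Rell1, a homologue of the receptor RELT, read 38.7 and 58.1 in IKDC, 58.2 and 86.0 in cDC and 544.0 and 925.2 in PDC. PDC was above cDC by 3.06 ± 0.36 log2 units (limma adjusted p = 0.000627) and at least 11.8-fold above IKDC (limma adjusted p = 0.000187). Both calls held in all 16 alternatives run. Cd40lg (CD40 ligand) read 1.6 to 10.1 and Ngfr 12.0 to 91.4, neither tested, and Eda2r was not analysed here.

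The proteins that receptors recruit were read in a list of 13 adaptor genes, 11 of them tested. It had 1 higher and 0 lower in IKDC than in cDC, 1 higher and 1 lower in PDC than in cDC, and 1 higher and 0 lower in IKDC than in PDC, with median differences of 0.09, -0.26 and 0.31 (0.01, -0.00 and 0.01 over 12193 genes). Traf1, an adaptor bound by TNF receptor 2 and 4-1BB, read 313.4 and 352.4 in IKDC, 683.1 and 565.0 in cDC and 79.5 and 60 in PDC. The order was cDC, IKDC, PDC, and PDC was below cDC (-2.90 ± 0.29, limma adjusted p = 0.000225) and IKDC 4.81-fold above PDC (2.03 ± 0.29, limma adjusted p = 0.00164). Both calls held in all 16 alternatives run.

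Tradd, the adaptor of TNF receptor 1, read 750.8 and 620.3 in IKDC, 287.9 and 170.7 in cDC and 541.4 and 571.3 in PDC at probe set 160689_r_at. It was lowest in cDC, 3.08-fold below IKDC (1.55 ± 0.31, limma adjusted p = 0.0114) and 2.51-fold below PDC (1.26 ± 0.31, limma adjusted p = 0.0448). The PDC call was lost in 13 of 17 alternatives and the IKDC call in 4, those without IKDC replicate 1, IKDC replicate 2 or cDC replicate 2 and that with probe sets averaged. A second probe set on U74C read 10.9 to 277.7 and was not called. The summed signal of the erythroid markers was also lowest in cDC, at 1323.2 and 2245.1 against 10183.2 to 23037.1 in the other samples. In IKDC and PDC most of it was Hba-a1, at 12059.9 and 13455.5 in IKDC and 21120.7 and 8068.0 in PDC. Of 7 erythroid genes tested, 4 were called higher in IKDC and 3 in PDC than in cDC. Epor, Slc4a1 and Gata1 were not called in either comparison. The part of erythroid RNA in the Tradd values was not tested.

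Of 10 death signalling genes 7 were tested. Over all tested probe sets 5.60%, 3.65% and 4.45% were called in the 3 comparisons, and 18.9% had an unadjusted limma p under 0.05 in IKDC versus cDC. In IKDC versus cDC 0 were called by limma (2 had an unadjusted p under 0.05), 1 was lower in PDC than in cDC and 1 was higher in IKDC than in PDC. That gene was Ripk3, the kinase of necroptosis, which read 548.3 and 569.8 in IKDC, 348.3 and 344.2 in cDC and 83.4 and 163.5 in PDC. It was 4.79-fold higher in IKDC than in PDC (2.11 ± 0.33, limma adjusted p = 0.00509), and 2.97-fold lower in PDC than in cDC (-1.44 ± 0.33, limma adjusted p = 0.0438) with a call lost in 10 of 16 alternatives.

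In the list of NF-kappaB steps below the receptors, 0 of 11 tested genes were called by limma in any comparison, while 4, 5 and 1 had an unadjusted p under 0.05 in IKDC versus cDC, PDC versus cDC and IKDC versus PDC. The same unadjusted limma threshold was met by 18.9%, 14.9% and 14.5% of all tested probe sets. The median difference of the 11 genes was -0.58, -0.70 and 0.27 in turn. Rela, an NF-kappaB subunit, read 601.4 to 1064.9, and the brightest probe set of its inhibitor gene Nfkbia read 14263.4 to 64954.3, with PDC minus cDC past the threshold only with the replicate block (limma adjusted p = 0.0147) or without PDC replicate 1 (limma adjusted p = 0.0272). The other 2 tested Nfkbia probe sets read 699.0 to 3582.8 and 260.5 to 1313.1, without a call. A second tested Rela probe set, on U74C, read 999.4 and 1102.6 in IKDC, 351.8 and 598.2 in cDC and 796.8 and 1084.4 in PDC. There cDC was lowest without overlap and without a call (IKDC minus cDC 1.16 ± 0.33, limma adjusted p = 0.0706, and PDC minus cDC 0.99 ± 0.33, limma adjusted p = 0.162). A further Rela probe set read 1.7 to 8.1 and was not tested. Of the 3 genes for shedding and processing of the ligands, 0 were called by limma (1, 0 and 0 at an unadjusted p under 0.05), with Furin at 297.4 to 583.3 and Adam10 at 52.7 to 201.1.

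**Figure D4:**
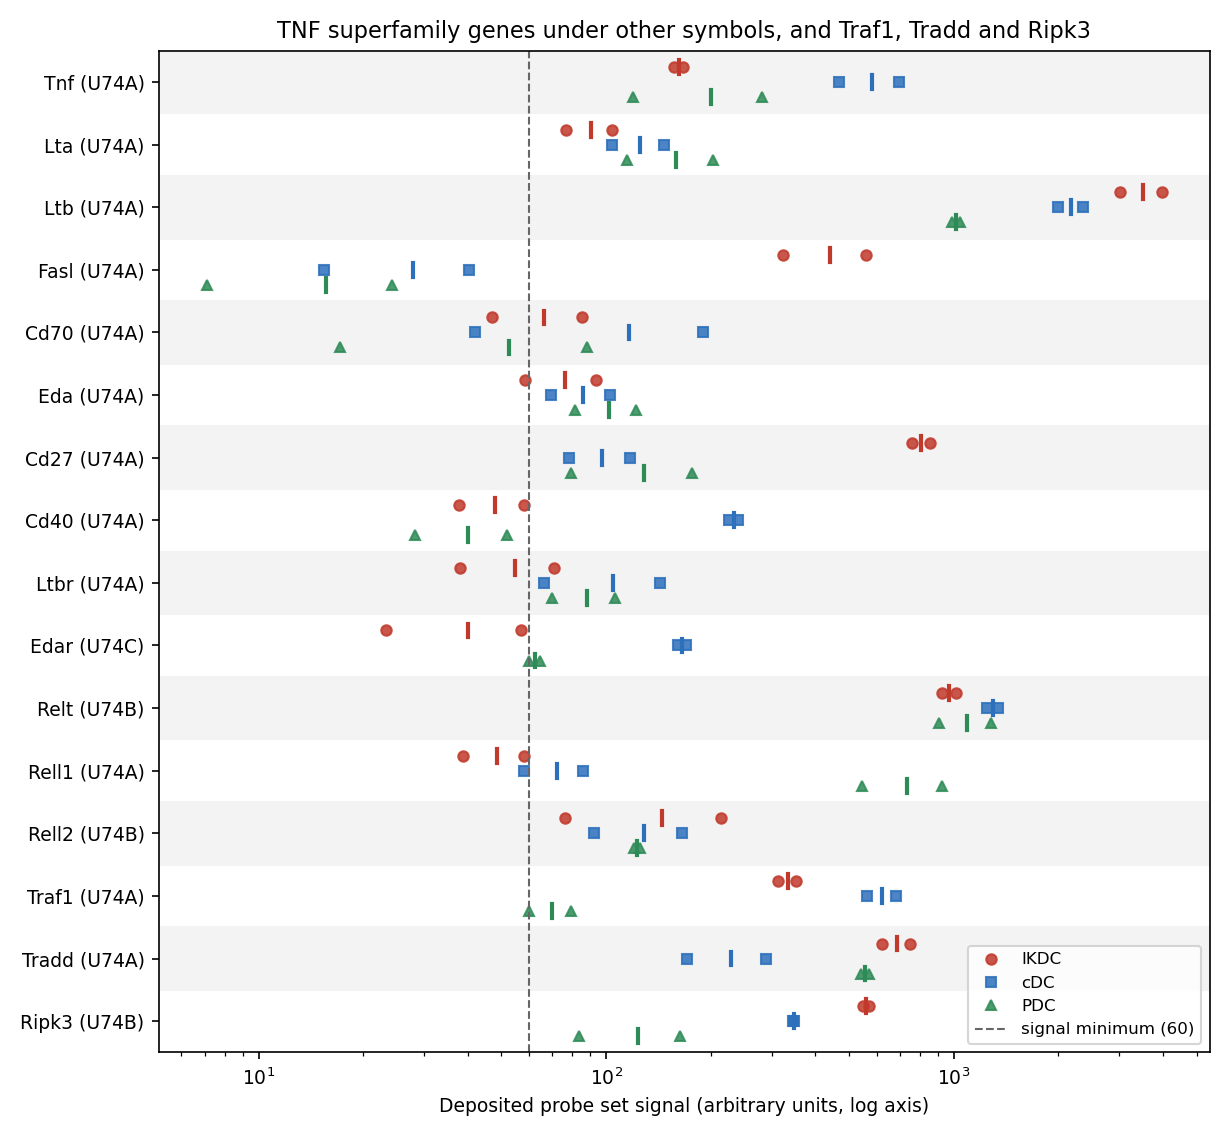
Deposited signal (arbitrary units, log axis) of TNF family genes under other symbols and of Traf1, Tradd and Ripk3 in each sample, with a bar at the mean of each population and a dashed line at 60. IKDC stands apart for Fasl (558.3 and 322.6) and Cd27 (758.1 and 854.1), cDC for Cd40 (226.1 and 239.1) and PDC for Rell1 (544.0 and 925.2).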

How the data were processed

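The authors deposited linear signal intensities from GCOS 1.1.1, with every array brought to a mean of 150, per the labels. MAS 5 is named in the submitters' processing notes. Per the labels' protocols, RNA went through a pair of amplification rounds, which favour 3' ends, and Gapdh had a 3' to 5' signal ratio of 2.97 to 6.0. Scaling each array to 1 mean level makes every difference relative to that mean. No detection calls were used here, and 0 columns of other samples were left aside.

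The 18 arrays were grouped by the population in their titles. Control probe sets (66 per array type) were left out. Values were taken as log2(signal + 16), and each array type was fitted separately, since it was scaled separately, in R 4.3.3 with limma 3.58.1 (lmFit, then eBayes with a trend on intensity, 3 populations in 1 model, 3 residual degrees of freedom before moderation). Levels are not compared between array types or probe sets. Tables and plots used Python 3.11.15, pandas 2.3.3 and matplotlib 3.10.9, and the fit was tested on simulated data. Of the unspiked bacterial control signals, 100% on U74A, 88.9% on U74B and 75.6% on U74C were under 60, so the minimum of 60 is a weaker bound on the latter pair. Folds are ratios of geometric means; where a population was under 60 in each sample, 60 took its place and the fold is a lower bound.

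Symbols came from the platform annotation, updated to RefSeq names (29131 of 36701 probe sets had 1 symbol). Genes outside the family were represented by their brightest tested probe set. Values per sample are given for family genes with a call, and for up to 4 called genes of each pathway list, or the brightest 2 where none was called. The members and lists were chosen with earlier results of these data known. Alternatives changed the pseudocount, signal minimum, normalization, samples in the fit, variance moderation, adjustment, replicate block, probe set choice and each sample in turn.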

Additional observations from a re-analysis of the deposited data

How the results depend on the processing

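No called difference of a named gene changed sign in the alternatives run, and the count of family probe sets lower in IKDC than in PDC was 1 in all of them. The count higher in IKDC than in cDC moved from 0 to 1 (Tnfrsf9) with a pseudocount of 64, no minimum, median centring, only the 2 populations, no intensity trend, adjustment within array type and the replicate block, and was 0 to 1 on leaving out 1 sample. With a minimum of 200, 5 family probe sets were tested, which left 0 lower in IKDC than in cDC, 1 lower in PDC than in cDC and 0 higher in IKDC than in PDC. Without the intensity trend PDC versus cDC gave 0 higher and 1 lower, and a pseudocount of 1 gave 0 higher in IKDC than in PDC. Leaving out 1 sample at a time gave 0 to 1 lower in IKDC than in cDC, 0 to 1 higher and 0 to 2 lower in PDC than in cDC, and 0 to 1 higher in IKDC than in PDC. The cause of these moves was not tested, apart from the smaller number tested at 200. Samples with the same number deviated together weakly at most (correlations -0.086 to 0.235, the highest for PDC and cDC on U74A), and the numbers are not taken as pairs. The replicate block changed 2 family counts. These were the count higher in IKDC than in cDC, given above, and the count lower in PDC than in cDC, from 2 to 3 with Tnfrsf1a. The block brought PDC minus cDC past the threshold for Ltb and Nfkbia. Over all probe sets the block gave more calls: 829 higher and 821 lower in IKDC versus cDC, 501 and 554 in PDC versus cDC, and 587 and 636 in IKDC versus PDC. Over all probe sets, 625 higher and 680 lower in IKDC than in cDC became 235 and 358 without IKDC replicate 1; 402 and 447 in PDC versus cDC became 221 and 106 without cDC replicate 2; and 480 and 556 in IKDC versus PDC became 186 and 307 without IKDC replicate 2. Median centring moved the median of all probe sets in IKDC versus cDC from -0.01 to 0.11. The highest unspiked control signal was 45.2 on U74A, under the minimum of 60, but 123 on U74B and 149 on U74C, so signals below those values there lie within the control range.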
